A study of Mus musculus with 8 samples.

Results

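The genes described here are Prdx1, Prdx2, Prdx3, Prdx5, Prdx6, Txn1, Gpx1, Gpx4, Sod1 and Cat, 10 genes whose enzymes remove peroxide or superoxide or, for thioredoxin, serve those that do. They were chosen by name and by their presence in all gene tables of the series. Presence rests on a minimum of 50 reads, and no change between libraries entered the rule. All 10 were present among 9875 genes in every table and 10690 genes in at least 1 table. The study sequenced 3′ ends of poly(A)+ RNA from NIH3T3, an established line of mouse embryo fibroblasts, to follow polyadenylation site (PAS) use through arsenite stress and recovery. Cells were nontreated (NT), kept in 250 μM sodium arsenite for 1 h (AS), or treated likewise and then washed and returned to regular medium for 4 h (the RC4 library) or 8 h (the RC8 library). All cells were of the same line in the same serum-containing medium, no genotype differed and NT was the only control. Each condition had 1 QuantSeq FWD library, whose reads fall near the poly(A) site. With 1 library per condition there was no spread between cultures and no test, so each value carries a 95% interval for the counting of reads only. Reads had no molecular identifiers and are not independent molecules.

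Arsenite reacts with protein and small-molecule thiols, and cells exposed to it accumulate reactive oxygen species. Superoxide dismutases turn superoxide into hydrogen peroxide, which catalase, the glutathione peroxidases and the peroxiredoxins then reduce. Typical 2-cysteine peroxiredoxins are returned to the reduced state by thioredoxin, which is itself reduced by thioredoxin reductases with NADPH, while glutathione peroxidases draw on glutathione. Many genes of both systems carry antioxidant response elements bound by the transcription factor NRF2.

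Levels are given as RPM, the reads of a gene for every 1000000 reads on genes of the library. Reads near the 3′ end were not divided by transcript length, and levels are compared between libraries and not between genes. The tables held 22441452 to 22996421 reads on genes per library. A gene is called higher or lower past 1.5-fold. The median log2 change of all genes against NT was −0.04 in AS, −0.30 in RC4 but 0.01 in RC8, and changes in RC4 are given relative to it where that matters. The arsenite-inducible genes Hmox1 and Mt1 checked the labels: Hmox1 went from 27.6 RPM in NT to 57.8 in AS and 888 in RC4, with 101 in RC8, and Mt1 from 339 to 757, 2842 and 1476. Hspa1b, a further gene of that check, was at 42.3, 218, 2369 and 90.4 RPM, and Hspa1a was not listed. All 10 fibroblast markers were listed in every table. Their summed level was 15688 RPM in NT and 16178 in AS, then 12152 in RC4 and 9498 in RC8. Past 1.5-fold lower were 6 of the 10 markers in RC4, beside 31.8% of all genes, and 7 in RC8, beside 11.9%. Without S100a4, the most read of them, the sum was 5416 RPM in NT and 3784 in RC8. The part of this in the changes below was not tested. No epithelial or endothelial marker was listed, and of the leukocyte markers Csf1r was listed, in the AS table, at 5.62 RPM in NT and 4.81 in AS. A gene that is not listed had under 50 reads in a library of that table or was not reported.

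Of the 10 genes, Prdx1 and Cat were past 1.5-fold higher in at least 1 treated library, and none was past 1.5-fold lower in any. In AS no gene of the 10 was past 1.5-fold, where 1.88% of all genes were higher and 11.4% lower by that margin. In RC4, Prdx1 alone was past it, beside 8.04% of all genes higher and 31.8% lower. In RC8, Prdx1 and Cat were past it, beside 11.3% of all genes higher and 11.9% lower. The median log2 change of the 10 genes was 0.11 in AS but −0.01 in RC4 and −0.11 in RC8. Without Gpx4, for which no PAS at the main 3′ end was listed, it was 0.11, 0.10 and −0.07. The sign of the median in RC4 thus depended on Gpx4. In AS and in RC4, 9 of the 10 were above the median of all genes of the table, and in RC8 4 of the 10 were. The AS, RC4 and RC8 comparisons share the NT library. In bulk RNA, fewer cells and less RNA per cell cannot be told apart.

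**Figure D1:**
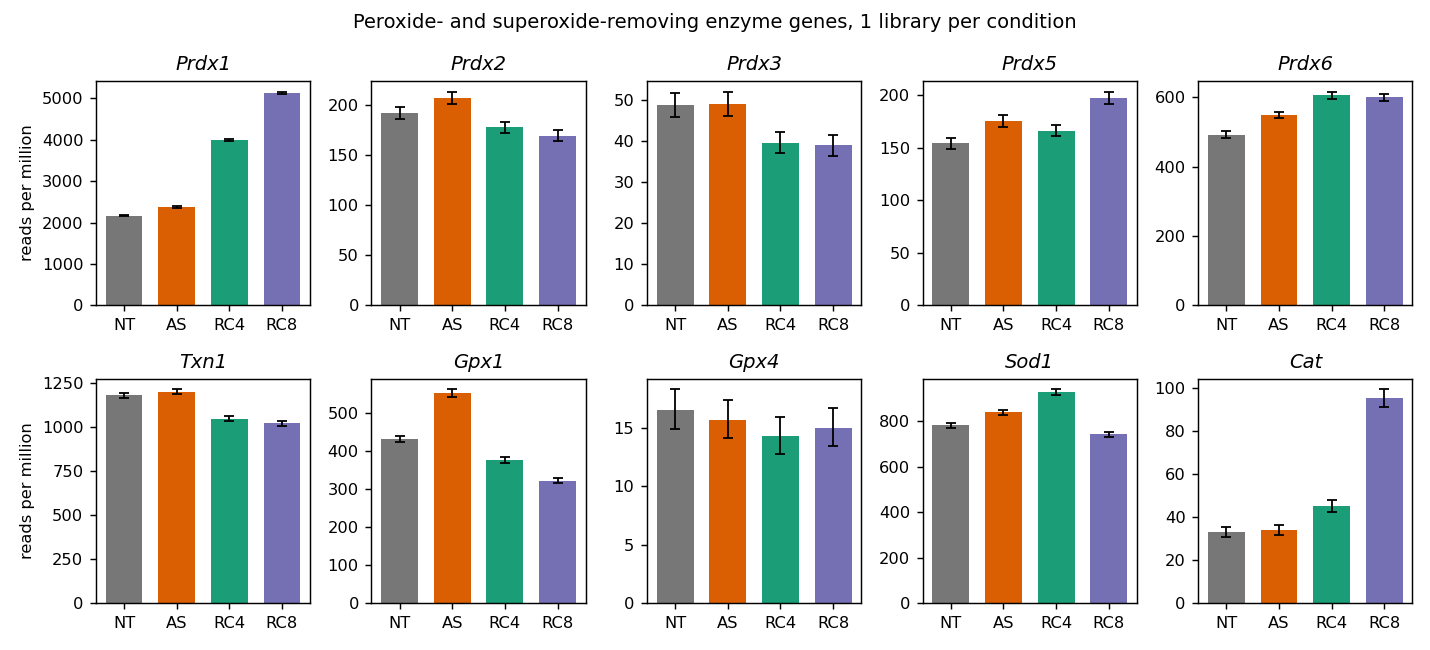
RPM of the 10 genes in the NT, AS, RC4 and RC8 libraries, 1 library per bar, with each axis starting at 0 and error bars showing exact 95% Poisson intervals for counting. Prdx1 went from 2165 in NT to 5133 in RC8 and Cat from 33.1 to 95.4, while Gpx1 was at its highest, 553, in AS.

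Prdx1 encodes a cytosolic typical 2-cysteine peroxiredoxin. It had 2165 RPM in NT, 2380 in AS and 4005 in RC4, and 5133 in RC8, from 48895 to 118049 reads. The levels stood in the order NT, AS, RC4, RC8, and no counting interval overlapped its neighbour. Against NT the fold was 1.1 in AS (95% interval 1.09 to 1.11), 1.85 in RC4 (1.83 to 1.87) and then 2.37 in RC8 (2.35 to 2.40). Scaled to the median gene, the log2 change against NT was 1.19 in RC4 and 1.24 in RC8. In RC4, 95.5% of all genes had a smaller log2 change than Prdx1, and in RC8 98.5% had. Prdx1 alone took 39.4% of the reads of the 10 genes in NT and 61.6% in RC8. The summed reads of the 10 genes were 0.549% of all reads on genes in NT and 0.833% in RC8. Without Prdx1 the sum was 3327 RPM in NT and 3618 in AS, then 3397 in RC4 and 3199 in RC8, so that without Prdx1 the sum in RC8 was below that in NT.

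The promoters of Prdx1, Cat and Sod1 are shown because Prdx1 and Cat are the genes past 1.5-fold and Sod1, like Prdx1, holds a match to the antioxidant response core without being past it. Each is 250 bases before to 50 after the RefSeq start (GRCm38.p6), 5′ to 3′ in the direction of the gene. Capitals mark matches on either strand to 4 motifs: the antioxidant response element core TGACNNNGC, the AP-1 element TGANTCA, the paired heat shock unit GAANNTTC and the FOXO element GTAAACA.
Prdx1 promoter, chr4:116685349-116685648, + strand: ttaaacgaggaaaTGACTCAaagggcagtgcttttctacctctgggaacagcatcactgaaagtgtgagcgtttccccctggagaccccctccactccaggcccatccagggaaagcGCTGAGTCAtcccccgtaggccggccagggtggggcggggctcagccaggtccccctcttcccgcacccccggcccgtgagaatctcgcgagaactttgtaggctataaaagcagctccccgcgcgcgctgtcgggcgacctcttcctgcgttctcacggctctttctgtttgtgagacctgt
Cat promoter, chr2:103485104-103485403, - strand: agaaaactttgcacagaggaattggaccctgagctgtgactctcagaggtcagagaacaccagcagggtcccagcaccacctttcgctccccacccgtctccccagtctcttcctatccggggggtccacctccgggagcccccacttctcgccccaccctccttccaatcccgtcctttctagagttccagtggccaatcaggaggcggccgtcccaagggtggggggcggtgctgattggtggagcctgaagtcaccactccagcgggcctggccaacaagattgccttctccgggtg
Sod1 promoter, chr16:90220512-90220811, + strand: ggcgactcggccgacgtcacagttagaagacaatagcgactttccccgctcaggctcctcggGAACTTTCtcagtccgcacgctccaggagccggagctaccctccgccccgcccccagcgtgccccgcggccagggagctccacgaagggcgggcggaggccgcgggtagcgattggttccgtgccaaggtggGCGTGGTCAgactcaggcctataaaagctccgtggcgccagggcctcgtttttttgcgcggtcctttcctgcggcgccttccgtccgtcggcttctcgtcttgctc

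The Prdx1 window holds the antioxidant core on the reverse strand as GCTGAGTCA, starting 133 bases before the start site, and the AP-1 letters TGAGTCA lie within it. Another AP-1 match, TGACTCA, begins 237 bases before the start site. The Cat window holds none of the 4 motifs. The Sod1 window holds the antioxidant core as GCGTGGTCA and the heat shock unit as GAACTTTC. RefSeq promoters were matched for 9 of the 10 genes, and Prdx6 had no entry. Of these 9, Prdx1 and Sod1 hold the antioxidant core, which 12.4% of 32851 promoters in the table hold. Prdx1 alone holds the AP-1 letters, against 7.81% of all promoters, and Prdx3 and Sod1 the heat shock unit, against 7.86%. None of the 9 holds the FOXO letters, which 3.65% of all promoters hold. A match describes letters in this window and is not a bound site.

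Prdx2, the other cytosolic typical 2-cysteine peroxiredoxin, had 192 RPM in NT, 207 in AS and 177 in RC4, and 169 in RC8. AS was the highest library and RC8 the lowest, and the intervals of RC4 and RC8 overlapped. Its log2 change against NT was 0.11 in AS but −0.12 in RC4 and −0.18 in RC8. Scaled to the median gene, the RC4 change was 0.19, so its sign in RC4 depended on the scaling.

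Prdx3, the peroxiredoxin of the mitochondrial matrix, had 48.9 RPM in NT and 49.1 in AS, then 39.6 in RC4 and 39.01 in RC8. The intervals of NT and AS overlapped, as did those of RC4 and RC8, and both recovery libraries were below both others. Its log2 change was −0.31 in RC4 (95% interval −0.43 to −0.18), with −0.33 in RC8 (−0.45 to −0.20). In RC4 that lay at the median of all genes, with 49.7% of genes below it, whereas in RC8 23.8% were below it.

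Prdx5, an atypical 2-cysteine peroxiredoxin found in mitochondria, peroxisomes and cytosol, had 154 RPM in NT, 175 in AS and 166 in RC4, and 197 in RC8. All treated libraries were above NT, and the intervals of AS and RC4 overlapped. Its largest change was 1.28-fold in RC8 (1.23 to 1.34). Prdx6, the 1-cysteine peroxiredoxin, which does not use thioredoxin and also has phospholipase activity, had 493 RPM in NT and 549 in AS, then 606 in RC4 and 600 in RC8. RC4 and RC8 overlapped and both were above AS and NT. The fold against NT was 1.22 in RC4 (1.19 to 1.26) and likewise 1.22 in RC8 (1.186 to 1.247), and scaled to the median gene Prdx6 passed 1.5-fold in RC4 with a log2 change of 0.60. The 5 peroxiredoxins thus did not share a direction: in RC8 Prdx1, Prdx5 and Prdx6 were above NT and Prdx2 and Prdx3 below it.

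Txn1, the cytosolic thioredoxin that reduces Prdx1 and Prdx2, had 1177 RPM in NT, 1197 in AS and 1045 in RC4, and 1018 in RC8. NT and AS overlapped and the recovery libraries were lower, by 0.18 on the log2 scale in RC4 and 0.21 in RC8. Relative to the median gene, the RC4 change was 0.13 and the RC8 change −0.22. Txn1 had the smallest span over the 4 libraries after Gpx4, with the highest library 1.18-fold above the lowest.

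Gpx1, the cytosolic and mitochondrial selenoprotein that reduces hydrogen peroxide with glutathione, had 432 RPM in NT and 553 in AS, then 376 in RC4 and 323 in RC8. It was highest in AS and lowest in RC8, with no overlap among the 4 intervals. The fold in AS was 1.281 (1.247 to 1.316), a change larger than that of 94.6% of genes in the table, and in RC8 the level was 1.34-fold below NT (1.30 to 1.38). From AS to RC4 the level was 1.47-fold lower (1.43 to 1.51), just under the fold used for calling. In that step 28.1% of genes had a lower log2 change, and relative to the median gene Gpx1 was at −0.34. Relative to the median gene the RC4 level was above NT, by 0.10 on the log2 scale, so the sign in RC4 depended on the scaling.

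Gpx4, which reduces lipid hydroperoxides in membranes, had 16.5 RPM in NT, 15.7 in AS and 14.3 in RC4, and 15.0 in RC8, from 327 to 373 reads. All 4 intervals overlapped, and with this few reads a change in RC8 between −0.35 and 0.08 on the log2 scale was within counting error. Both PASs listed for Gpx4 were classed as intronic, at chr10:79518666 and chr10:79518854 (mm9, + strand), 518 and 330 bases before the end of the gene in GENCODE vM1. No PAS at that end was listed, so these values describe the 2 sites and not the main 3′ end of Gpx4.

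Sod1, the cytosolic copper and zinc superoxide dismutase, had 782 RPM in NT and 839 in AS, then 928 in RC4 and 743 in RC8. RC4 was the highest library and RC8 the lowest, and none of the 4 intervals overlapped. The fold in RC4 was 1.18 (1.16 to 1.21), and from RC4 to RC8 the level was 1.248-fold lower (1.22 to 1.27). Scaled to the median gene, the RC4 change against NT was 0.55 on the log2 scale. The step from RC4 to RC8 was then −0.58, and both were short of 1.5-fold.

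Cat, the peroxisomal catalase, had 33.1 RPM in NT, 34.0 in AS and 45.3 in RC4, and 95.4 in RC8, from 748 to 2194 reads. NT and AS overlapped, RC4 was above both and RC8 was above all others. The fold against NT was 1.03 in AS (0.926 to 1.14), 1.36 in RC4 (1.24 to 1.501) and finally 2.88 in RC8 (2.65 to 3.13). In RC8, 99.5% of all genes had a smaller change. Scaled to the median gene, the RC4 change of Cat was 0.75 on the log2 scale, past 1.5-fold. Cat had the widest span of the 10 genes and Gpx4 the narrowest, 2.88-fold and 1.16-fold from the lowest library to the highest.

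**Figure D2:**
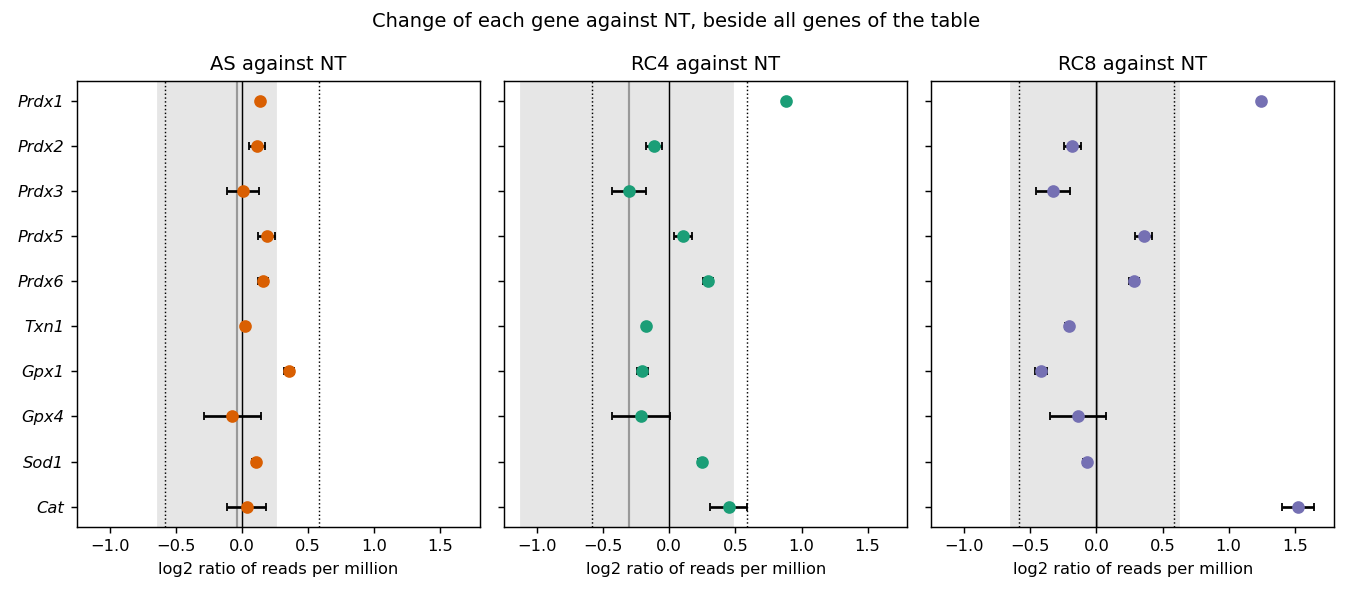
The log2 ratio of RPM against NT for each of the 10 genes in AS, RC4 and RC8, with exact 95% counting intervals that are partly hidden by the points. Dotted lines mark 1.5-fold, the grey band the range from the 10th to the 90th percentile of all genes and the grey line their median, and Prdx1 in RC4 and RC8 and Cat in RC8 lie past the dotted line.

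The steps between successive time points were read for Prdx1 and Cat. From AS to RC4, Prdx1 was 1.68-fold higher (1.66 to 1.70) and Cat 1.33-fold higher (1.21 to 1.47), and Prdx1 was the 1 gene of the 10 past 1.5-fold, beside 12.5% of all genes higher and 26.6% lower. The median gene was lower by 0.22 on the log2 scale in that step, and relative to it Prdx1 was higher by 0.97 and Cat by 0.63, both past 1.5-fold. From RC4 to RC8, Prdx1 was 1.28-fold higher (1.27 to 1.29) and Cat 2.11-fold higher (1.96 to 2.27). Cat was then the 1 gene past 1.5-fold, beside 30.6% of all genes higher and 6.59% lower. The median gene was higher by 0.26 from RC4 to RC8, and relative to it Prdx1 was higher by 0.10 and Cat by 0.81. Whether Cat passed 1.5-fold from AS to RC4 thus depended on the scaling.

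Genes with the pattern nearest to that of Cat were sought by the Euclidean distance of the 3 log2 changes against NT, over 7813 other genes with at least 200 reads in every library. The nearest was Upp1, a uridine phosphorylase, at a distance of 0.18, with changes of 0.21 in AS, 0.44 in RC4 and 1.56 in RC8. Hs1bp3, Dtx4, Fam20c and Map3k13 followed, at distances of 0.22 to 0.26. Within a distance of 0.50 of Cat there were 38 genes, and within that distance of Gpx4, the gene of the narrowest span, there were 2620. The 5 nearest to Gpx4 were Timp2, Usp8, Dnttip2, Cpq and Babam1, at 0.02 to 0.05. The counting interval of Gpx4, −0.35 to 0.08 in RC8, is wider than these distances, so which genes are nearest is not resolved. The Gpx4 values also come from intronic sites and not from its main 3′ end.

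The other genes of the thiol and glutathione systems were read from a list of 35 genes, of which 33 were listed in all tables and Gpx3 and Msrb2 were not. In AS, 1 of the 33 was past 1.5-fold higher and 0 lower, beside 1.88% and 11.4% of all genes. In RC4, 4 were higher and 3 lower, beside 8.04% and 31.8% of all genes. In RC8, 6 were higher and 4 lower, beside 11.3% and 11.9%, and without Sod2, whose RC8 call rests on the NT and RC8 counts of 1 table, 3 were lower. The median log2 change of the 33 was 0.05 in AS and −0.08 in RC4, and it was 0.12 in RC8, beside −0.04, −0.30 and 0.01 for all genes.

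The enzymes that return peroxiredoxins and thioredoxin to the reduced state were among the genes past 1.5-fold. Txnrd1, the cytosolic thioredoxin reductase, had 165 RPM in NT and 149 in AS, then 693 in RC4 and 333 in RC8, log2 changes of −0.14, 2.07 and 1.01. Srxn1, the sulfiredoxin that restores overoxidised 2-cysteine peroxiredoxins, had 148, 140, 1434 and 355 RPM, with log2 changes of 3.27 in RC4 and 1.26 in RC8. Both were highest in RC4, whereas Prdx1 and Cat were highest in RC8. Txnrd3, a reductase of thioredoxin and glutathione best known from testis, was at 9.92, 10.8, 12.1 and 24.9 RPM and past 1.5-fold in RC8 with a log2 change of 1.33. Relative to the median gene, Txnrd3 was just past 1.5-fold in RC4, at 0.587. Txnrd2, the mitochondrial reductase, was past 1.5-fold in AS with a log2 change of 0.66 (95% interval 0.37 to 0.96), from 157 reads in NT and 247 in AS. Nxn, the thioredoxin-like nucleoredoxin, was lower, by 0.72 on the log2 scale in RC4 and 0.62 in RC8.

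In the supply of glutathione, Slc7a11, the cystine transporter, had the largest change of the list, from 6.33 RPM in NT and 5.84 in AS to 199 in RC4 and 49.9 in RC8, log2 changes of 4.97 and 2.98 in the recovery libraries. Gclc, the catalytic subunit of glutamate-cysteine ligase, had 39.7 RPM in NT, 28.0 in AS and 117 in RC4, and 35.6 in RC8, a log2 change of 1.55 in RC4 alone past the fold. Gclm, its modifier subunit, had 1105, 1233, 1086 and 1152 RPM and was past 1.5-fold in none. Of the glutathione transferases, Gsto1 and Mgst1 were past 1.5-fold in RC8, with log2 changes of 1.12 and 0.97. Relative to the median gene, Gsto1 was also past 1.5-fold in RC4, at 0.75. Glrx, the cytosolic glutaredoxin, was lower by 0.88 in RC4 and by 0.28 in RC8. Relative to the median gene, Glrx in RC4 was at −0.58 and Nxn at −0.42, short of 1.5-fold. Idh1, a cytosolic source of NADPH, was lower in both recovery libraries, with 335 RPM in NT and 308 in AS, then 157 in RC4 and 111 in RC8.

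In RC4 the other dismutases were below NT, where Sod1 was above it, and in RC8 all were below NT. Relative to the median gene in RC4, Sod1 was at 0.55, Sod3 at −0.12 and Sod2 at −0.01, which is about the median. Sod3, the extracellular enzyme, had 60.0 RPM in NT, 53.2 in AS and 44.9 in RC4, and 20.9 in RC8, a log2 change of −1.52 in RC8. Sod2, the mitochondrial enzyme, had a log2 change of −0.01 in AS, of −0.31 in RC4 and of −0.99 in RC8. The RC8 value rests on an NT count of 7553 reads, where the AS and RC4 tables give 4173 reads for the same NT library, and against 4173 the RC8 change was −0.14. Each table lists 3 PASs of Sod2, of which 2 are in all tables, and the RC8 table has 1 that the others lack and lacks 1 that both others have. The value of −0.14 thus sets RC8 reads under 1 PAS list against NT reads under another, and is not a like-for-like ratio. Over all genes shared by 2 tables, the NT counts differed by more than 10% in 3.06% to 3.62% of genes with different PAS lists and in 0.270% to 0.357% of genes with the same list. For the 10 genes the NT counts were equal in the 3 tables, except for Prdx1 with 48895 and 48902 reads and Prdx6 with 11124 to 11153.

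**Figure D3:**
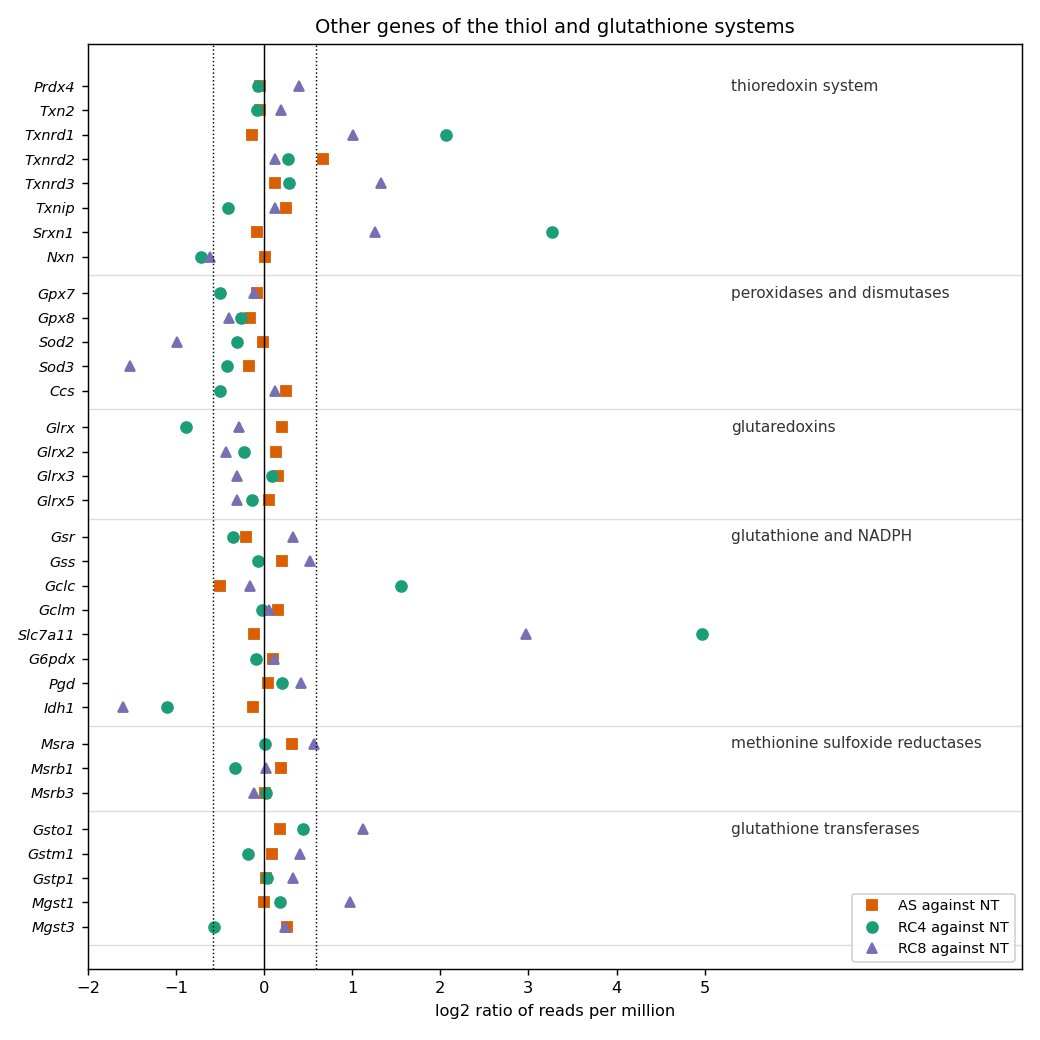
The log2 ratio of RPM against NT for the 33 listed genes of the thiol and glutathione systems, grouped by role, in AS (squares), RC4 (circles) and RC8 (triangles), with dotted lines at 1.5-fold. Slc7a11, Srxn1, Txnrd1 and Gclc lie furthest to the right in RC4, and Sod3 and Idh1 furthest to the left in RC8.

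The tables listed 19 PASs for the 10 genes. Prdx1, Prdx3, Gpx1 and Cat each had 1 PAS in every table, so no shift between sites could be measured for them, and these include both genes past 1.5-fold. Prdx1 ended at chr4:116372120 (mm9, + strand), Gpx1 at chr9:108242673 (+ strand), Prdx3 at chr19:60939973 (− strand) and Cat at chr2:103294129 (− strand), each classed as in the 3′-most exon. The other 6 genes had 2 to 4. Windows of 30 bases at 6 of the sites are shown because the place of the polyadenylation hexamer, AATAAA or ATTAAA (capitals), differed among them. The first 3 end at the listed position and the last 3 begin 1 base after it, 5′ to 3′ in the direction of the gene (mm9).
Prdx1, chr4:116372091-116372120, + strand: taagtatctATTAAAcgtgaattctgagaa
Prdx5, chr19:6981196-6981225, - strand: ctgcAATAAAcagtttaatttgtgtcttta
Gpx1, chr9:108242644-108242673, + strand: ctactaagAATAAAgtgctgaatatcagaa
Prdx2, chr8:87498191-87498220, + strand: ccAATAAAgtattagggacagtgtaagtct
Prdx6, chr1:163171136-163171165, - strand: caacaAATAAAatcctgatcagaaaaccgt
Txn1, chr4:57956630-57956659, - strand: cAATAAAatattaattctaccctttttaaa

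Of the 19 PASs, 4 had a hexamer within 40 bases upstream, in Prdx1, Prdx3, Prdx5 and Gpx1. For Prdx2, Prdx6 and Txn1 the hexamer instead began 2 to 6 bases after the listed position, and 12 PASs had none within 40 bases on either side. Over all PASs of the AS table the shares were 53.8% upstream, 8.18% downstream only and 38.1% neither. The listed PAS of Txn1 lay 415 bases, that of Prdx2 543 bases and that of Prdx6 923 bases before the end of the gene in GENCODE vM1. The single PAS of Prdx1, which has a hexamer upstream, lay 1307 bases before the end of its gene. The 200 bases before the PAS also had copies elsewhere in mm9 at 85% identity or more over at least 100 bases, 2 for Prdx1, 3 for Prdx2, 2 for Prdx6, 1 for Txn1 and 1 for Sod1, the closest of them 97.0% identical to Prdx2. How reads that map to several places were counted is not given in the sources used here, and the counts of these genes are less certain for it. Prdx3, Prdx5, Gpx1, Gpx4 and Cat had no such copy.

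A PAS fraction is the share of a gene's reads that the authors' model estimated for a site from the distance of reads to sites. The intervals on fractions treat them as counted reads and leave out the error of assigning reads to sites. A change of 10 percentage points was taken as the threshold. In AS and RC4 none of the 6 genes with several PASs reached it, beside 15.2% and 29.0% of all genes with several PASs. In RC8, Gpx4 reached it, beside 26.9% of all such genes. The largest change of a site had a median over the 6 genes of 2.0 percentage points in AS, of 2.55 in RC4 and of 2.32 in RC8, beside 4.2, 6.2 and 6.0 over all genes.

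The downstream site of Gpx4 held 44.9% of its reads in NT (95% interval 39.65 to 49.98), 49.5% in AS (44.1 to 54.8) and 49.5% in RC4 (44.0 to 55.1). In the RC8 table it held 44.5% in NT (39.4 to 49.7) and 70.4% in RC8 (65.3 to 75.2), and the RC8 interval did not overlap the others. By these estimated fractions the upstream site went from 207 reads in NT to 102 in RC8 and the downstream site from 166 to 243. The reads of both sites together did not change beyond counting error, and they do not measure the main end of Gpx4. The change of 25.9 percentage points was larger than that of 98.4% of genes.

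In Prdx5, the more upstream of the 2 sites in the 3′-most exon, chr19:6981309, held 47.6% of reads in NT, 52.9% in RC4 and 53.3% in RC8, a difference of 5.70 percentage points in RC8. The site at chr19:6982059, in an internal exon, held 9.36% in NT, 6.28% in RC4 and 5.97% in RC8. In Prdx2 the intronic site at chr8:87495720 held 10.8% in NT but 8.90% in AS, 7.83% in RC4 and 8.86% in RC8, below NT in every treated library. In Prdx6 the upstream site, chr1:163171644, held 8.43% in NT and 9.36% in AS, then 10.5% in RC4 and 11.1% in RC8, and its intervals in RC4 and RC8 were above that of NT. In Sod1 the upstream of the 2 sites stayed between 9.99% and 10.6% in all libraries. In Txn1 the intronic site held 5.19% to 6.01%, and the main site 87.3% of NT reads in the AS table but 94.4% in the others, because the AS table listed another site with 7.08%.

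**Figure D4:**
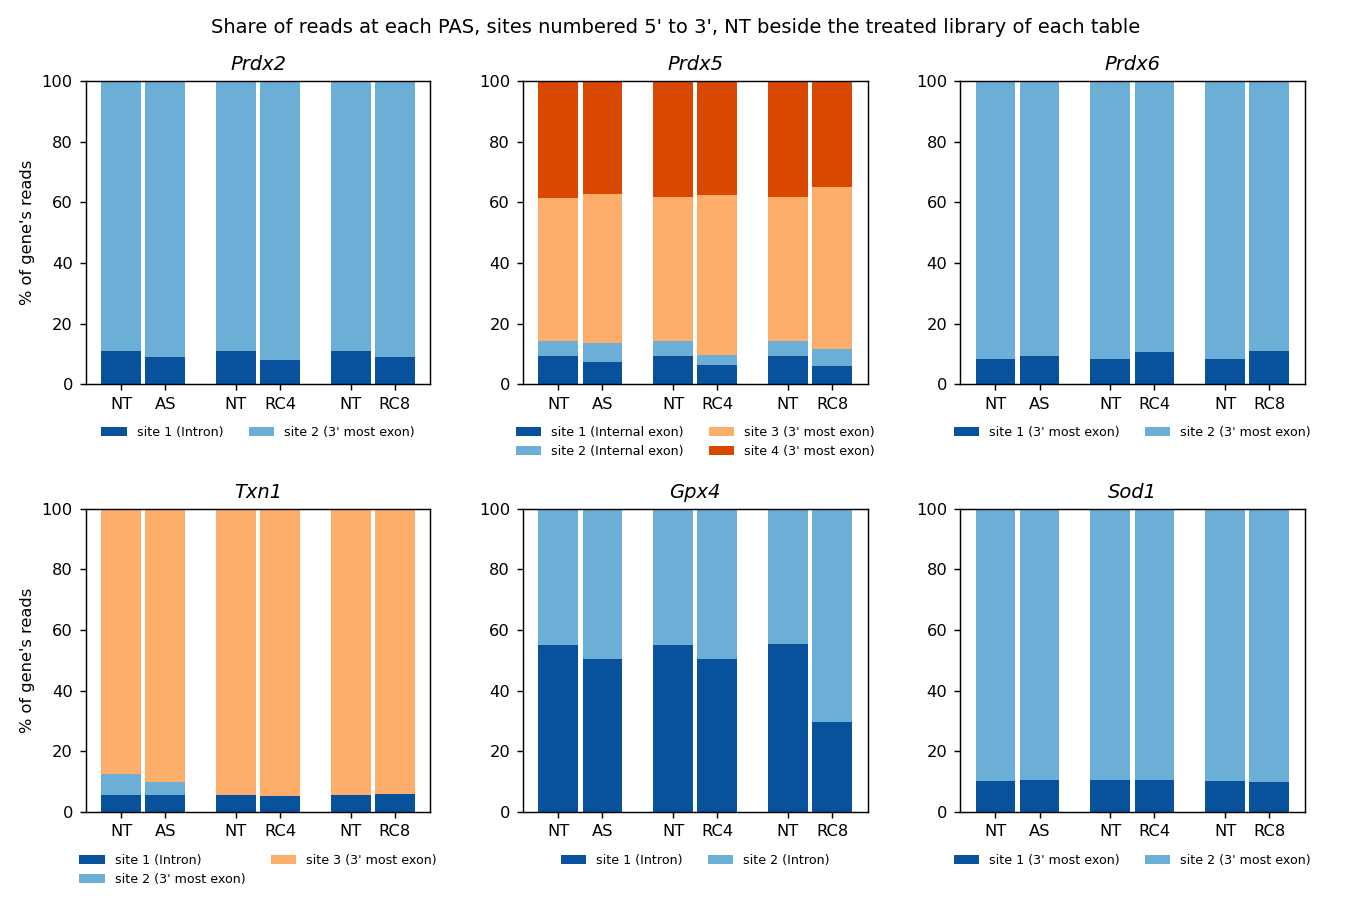
The estimated share of a gene's reads at each listed PAS, in percent, for the 6 genes with more than 1 PAS. NT stands beside the treated library of each table, and sites are numbered from 5′ to 3′. The bars differ by less than 6 points for 5 genes, and in Gpx4 the downstream site goes from 44.5% in NT to 70.4% in RC8.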

How the data were processed

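QuantSeq FWD libraries were prepared from RNA of NIH3T3 cells, 1 library per condition. The authors trimmed reads with bbmap, mapped them to mm9 with STAR (version 2.5.2a per the labels, up to 20 places per read) and applied MAAPER with PASs of PolyA_DB to genes with at least 50 reads. The deposited gene tables hold whole-number read counts without normalization, in 2 columns per library, which were added here. The share of a gene's reads at each PAS was deposited as a fraction estimated by MAAPER. The gene tables also hold the authors' own comparisons (P values and scores of PAS shifts), and these were not used. QuantSeq REV libraries were not analysed here.

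Counts were scaled to the reads on genes of each library. Intervals at the 95% level are exact Poisson for levels, conditional binomial (Clopper-Pearson) for ratios and exact binomial for fractions (scipy 1.17.1), and cover counting error only. NT levels are those of the AS table. With 1 library per condition no test was made. Positions were read in mm9 with GENCODE vM1, copies were sought with blastn 2.17.0, and promoters are those of RefSeq on GRCm38.p6. The intervals and the fold call were tried on simulated Poisson counts with the same total for both libraries. Such data cannot test the scaling or any spread beyond counting. The 10 genes were named in full, together with every gene of the pathway list past 1.5-fold in AS, RC4 or RC8 against NT, the 5 genes nearest in pattern to the widest and to the narrowest gene, and 4 genes known to respond to arsenite, which checked the labels. Genes and lists were chosen with earlier results of these data known. Alternatives were median-of-ratios, TMM (edgeR 4.0.16) and upper-quartile scaling, the library totals given by the study, each read column alone, at least 200 reads, NT counts of another table, and other thresholds.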

Additional observations from a re-analysis of the deposited data

Results flagged for a closer look

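In 3 of the 10 genes the change against NT had opposite signs in different treated libraries, each with a counting interval clear of 0. The difference was not tested, since each condition had 1 library. Gpx1 had a log2 change of 0.36 in AS, −0.20 in RC4 and −0.42 in RC8. Prdx2 had 0.11 in AS, −0.12 in RC4 and −0.18 in RC8. Sod1 had 0.10 in AS, 0.24 in RC4 and −0.073 in RC8. Scaled to the median gene, the RC4 changes of Gpx1 and Prdx2 were 0.10 and 0.19, so the opposite signs of these genes then lay between AS and RC8.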

How the results depend on the processing

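No paired analysis was possible because each condition has 1 library and the labels carry no replicate numbers. Of the 30 log2 changes of the 10 genes, each under 8 alternatives that could move it, 187 of 240 values stayed within the counting interval of the reported value, no change past 1.5-fold turned its sign, and 16 values under 1.5-fold did, 12 of them in RC4 under another scaling. With median-of-ratios scaling, 3 of the 10 genes were past 1.5-fold higher in RC4 (Prdx1, Prdx6 and Cat), and with TMM or upper-quartile scaling 2 were (Prdx1 and Cat). Over all genes, the share past 1.5-fold in RC4 was then 13.3% to 15.0% higher and 17.4% to 19.6% lower. In the pathway list, 1 gene in place of 3 was lower in RC4 with median-of-ratios scaling, and 6 in place of 4 were higher, with Txnrd3 and Gsto1 added. With TMM or upper-quartile scaling 2 were lower and 5 higher, with Gsto1 added. With at least 200 reads in both libraries, 0 genes of that list were higher in AS, and 1 was lower in AS (Sod2) with the RC8 table's NT counts. With the NT counts of either other table, 3 in place of 4 were lower in RC8, without Sod2, for which the PAS lists of the tables differ. At a threshold of 2-fold on RPM, 0 of the 10 genes were higher in RC4, beside 3.69% of all genes. Scaled to the median gene, Prdx1 was past 2-fold there, with a log2 change of 1.19. At 2-fold on RPM, of the 33 listed genes of the pathway 0 were higher in AS (0.622% of all genes), 1 lower in RC4 (13.4%) and 2 lower in RC8 (3.53%). At a lower threshold, a log2 change of 0.32, 1 of the 10 genes was higher in AS (Gpx1, beside 6.77% of all genes), 2 were higher in RC4 (13.8%) and 2 lower in RC8 (Prdx3 and Gpx1, beside 24.1%). Of the 33, 1 was then lower in AS (23.3%), 10 lower in RC4 (48.7%) and 13 higher in RC8 (24.7%). At 5 percentage points, a PAS fraction differed in 1 of the 6 genes with several PASs in RC4 (Prdx5) and in 2 in RC8 (Prdx5 and Gpx4), beside 58.8% and 57.7% of all such genes. Over the PASs of the 3′-most exon alone the count in RC8 was 0, as Gpx4 has none there. Of the 10 genes, only Prdx5, Prdx6 and Sod1 had several PASs in that exon in RC8. Over all genes with several there, 26.8% reached the threshold of 10 percentage points in RC8. Depth limits the change of Gpx4 most, with 327 to 373 reads.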
